A study of Rattus norvegicus with 22 samples.

Results

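Cxcl1, Cxcl3, Cxcr1 and Elane, 4 of the 32545 gene identifiers counted in rat cortex, were followed across injury and hemisphere. They were taken from a list of gene symbols naming neutrophil chemokines, a chemokine receptor and the neutrophil elastase, and each symbol was paired with its Ensembl identifier through supplementary tables of genes that the study called on these same samples. That pairing names 1822 identifiers in all, so a gene that can be named here was already likely to differ, and counts of named genes that rose are not independent evidence of a direction.

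Total RNA sequencing was run on cortex from 11 adult male rats (spelled Sprague-Daley in the labels), giving 22 libraries of 42085341 to 63412426 counts. Penetrating ballistic brain injury (PBBI), in which a probe enters the right frontal pole and a balloon at its tip is briefly inflated, was given to 6 rats. The 5 sham rats underwent the same surgery with no probe inserted, and all 11 carried electrodes for sleep recording. Cortex was collected 24 h later from the ipsilateral (right, injured) and contralateral hemispheres, so the groups were ipsilateral PBBI (n = 6), ipsilateral sham (n = 5), contralateral PBBI (n = 6) and contralateral sham (n = 5). The controls therefore also carried electrodes and a craniectomy, and each cortex piece is a mixture of cell types.

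Neutrophils are the white blood cells that are among the earliest to reach damaged tissue. Chemokines of the ELR CXC class, which include Cxcl1 and Cxcl3, are made by stressed glia, endothelium and leukocytes under signals such as interleukin 1 that act through NF-kB, and they draw neutrophils from blood by binding the receptors Cxcr1 and Cxcr2. Elane encodes neutrophil elastase, a serine protease stored in granules; its transcript is made mainly in immature bone marrow precursors, whereas mature neutrophils carry the protein.

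Total counts overlapped between groups, and the ipsilateral library of PBBI rat 85 stood apart: its mean correlation with the other ipsilateral PBBI libraries over genes was 0.835, against 0.933 to 0.943 for the other 5. Sample titles of both libraries of PBBI rat 81 and of the contralateral library of sham rat 82 carry a code that the other 19 do not, which the labels do not explain. The summed level of 8 named neutrophil markers was 34.7 to 264 CPM (counts scaled to library size) in ipsilateral PBBI cortex and 10.5 to 63.4 in ipsilateral sham cortex, so these ranges overlapped, and none of the 8 was at 0 in all samples of a group. The TMM normalization factor of the ipsilateral rat 85 library was 0.706, against 1.07 to 1.21 in the other 5 ipsilateral PBBI libraries. Its CPM are therefore higher relative to its total count than theirs. In bulk tissue, a change in the number of cells of a type and a change in RNA per cell cannot be told apart.

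In the RefSeq gene table of the GRCr8 assembly, Cxcl1 and Cxcl3 are close neighbours in a chemokine cluster on chromosome 14 that also holds Cxcl2, Pf4, Ppbp and Cxcl6, Cxcr1 is next to Cxcr2 on chromosome 9, and Elane is next to Prtn3, another granule protease, on chromosome 7. Members of the cluster are similar copies, and how reads aligning to several places were counted is not stated, so some exchange of reads between them could not be checked. The 250 bases before the transcription start are shown for Cxcl1, which rose with injury, for its cluster neighbour Cxcl6, and for Cxcr1, which was too low for the genome-wide test (RefSeq, GRCr8, minus strand for all 3, written 5′ to 3′). Capitals mark matches to an NF-kB pattern, GGGNNTTTCC or its reverse complement GGAAANNCCC.
Cxcl1, chr14:17479322-17479571: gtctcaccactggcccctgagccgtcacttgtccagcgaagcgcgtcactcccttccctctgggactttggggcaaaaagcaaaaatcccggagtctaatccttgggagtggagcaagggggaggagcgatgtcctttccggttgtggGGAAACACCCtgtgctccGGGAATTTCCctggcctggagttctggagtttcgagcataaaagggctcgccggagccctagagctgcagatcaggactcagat
Cxcl6, chr14:17596418-17596667: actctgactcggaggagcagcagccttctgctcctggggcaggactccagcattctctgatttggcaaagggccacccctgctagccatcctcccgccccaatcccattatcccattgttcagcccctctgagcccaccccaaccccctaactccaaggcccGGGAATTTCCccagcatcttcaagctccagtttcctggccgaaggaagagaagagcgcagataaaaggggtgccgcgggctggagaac
Cxcr1, chr9:83220226-83220475: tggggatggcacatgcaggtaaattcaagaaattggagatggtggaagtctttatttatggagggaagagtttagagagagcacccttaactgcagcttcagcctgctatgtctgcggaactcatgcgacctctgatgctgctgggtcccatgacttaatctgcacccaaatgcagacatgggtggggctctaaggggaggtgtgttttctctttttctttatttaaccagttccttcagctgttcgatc
The Cxcl1 window held 2 matches, which do not overlap and begin 102 and 84 bases before the start, and the Cxcl6 window held 1, beginning 88 bases before it. The Cxcr1 window held 0. Of all 27457 promoter windows of the same length, 351 (1.28%) held at least 1 match, and a match describes letters only.

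The chemokines rose in the injured cortex. In all 6 ipsilateral PBBI samples Cxcl1 and Cxcl3 were above all 5 ipsilateral sham samples, and these 2 of the 4 members were called higher by the quasi-likelihood test of edgeR at a Benjamini-Hochberg adjusted p no higher than 0.05. Among the 16104 genes in that fit, 4.09% were called higher in ipsilateral PBBI cortex and 3.5% had all PBBI samples above all sham samples. The PBBI samples alone put Cxcl1 and Cxcl3 past the filter on low counts, whereas Cxcr1 and Elane did not pass it and were tested singly.

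Cxcl1 (ENSRNOG00000002802), a chemoattractant that binds Cxcr2, was low in sham cortex. Its level in the ipsilateral sham samples was 0.0737 CPM in rat 82, 0.399 in rat 84, 0.16 in rat 86, 0.127 in rat 91 and 0.971 in rat 94. In ipsilateral PBBI cortex the lowest level was 2.57 CPM (175 counts, rat 83), the median 13.3 and the highest 31.1 (1377 counts, rat 85). The groups did not overlap, the 2 lowest injured rats being 83 and 96. The mean was 13.5 ± 10.4 CPM (SD, n = 6) against 0.346 ± 0.371 (n = 5), a log2 fold change of 5.26 (SE 0.873; edgeR, adjusted p = 0.00598), and it was 4.81 without rat 85 (adjusted p = 0.00221) and 6.14 without sham rat 94.

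Sham rat 94 had the highest Cxcl1 of the sham samples in both hemispheres. Its summed neutrophil markers, 63.4 CPM ipsilaterally and 56.5 contralaterally, were also the highest of the sham samples, the other 8 lying between 10.5 and 21.0. The part of these markers in its Cxcl1 level was not tested.

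Cxcl3 (ENSRNOG00000028043), another chemoattractant of the cluster, was also low in sham cortex. It varied more than Cxcl1 over the 6 injured rats, a wider spread that rested on rat 81. Ipsilateral sham levels were 0.258 CPM in rat 82, 0.076 in rat 84, 0.0535 in rat 86, 0.0317 in rat 91 and 0.132 in rat 94, that is 2 to 14 counts. Ipsilateral PBBI levels ran from 0.838 CPM (57 counts, rat 83) through a median of 4.61 to 38.2 (2439 counts, rat 81). There was no overlap, and rat 81 alone held 66.0% of the CPM summed over the 6 injured cortices. The log2 fold change was 6.41 (SE 1.15; edgeR, adjusted p = 0.00856), and without rat 81 it was 5.13 (adjusted p = 0.00956).

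**Figure D1:**
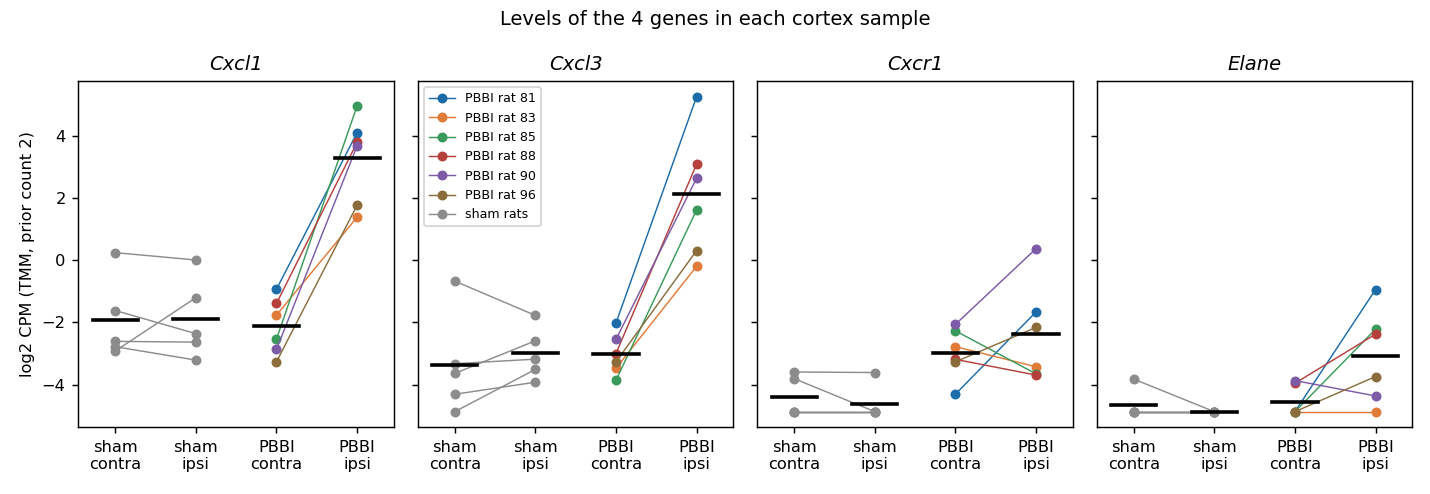
Log2 CPM (TMM-normalized, prior count 2) of the 4 genes in each of the 22 cortex samples, by treatment and hemisphere. Points are samples, thin lines join the hemispheres of a rat (PBBI rats coloured, sham rats grey), and black bars are group means. All 6 ipsilateral PBBI points lie above all 5 ipsilateral sham points for Cxcl1 and Cxcl3, and the groups overlap for Cxcr1 and Elane.

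Per kilobase of gene length, the scale on which genes can be compared, ipsilateral PBBI levels were 14.5 ± 11.3 CPM per kb for Cxcl1, 6.58 ± 9.75 for Cxcl3, 0.213 ± 0.322 for Cxcr1 and 0.162 ± 0.202 for Elane (SD, n = 6). These spreads overlapped for Cxcl1 and Cxcl3, and for Cxcr1 and Elane. Both genes of a pair were measured in the same samples, and a paired difference was not tested. The ratio of Cxcl3 to Cxcl1 per length in these samples went from 0.0615 in rat 85 to 1.41 in rat 81, and it was below 1 in the other 4 rats (0.206 to 0.388). Cxcl1 was far above Cxcl3 in rat 85 and the order was turned in rat 81.

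Cxcl6 (ENSRNOG00000002843), the other named ELR CXC chemokine, had 14 to 164 counts in ipsilateral PBBI cortex and 4 to 14 in sham. Its groups overlapped in CPM, and its log2 fold change of 2.37 (SE 0.737) missed the threshold (edgeR, adjusted p = 0.0961). Within the 6 injured cortices its log2 CPM followed that of Cxcl3 (r = 0.986 over 6 samples, as a description) more than that of Cxcl1 (r = 0.683). Rat 85, whose library stood apart, was highest for Cxcl1 but had only 22 counts of Cxcl6. The part of this 1 library in the contrast was not tested.

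Cxcr1 (ENSRNOG00000048239), a receptor for ELR CXC chemokines, was near the limit of detection. In ipsilateral sham cortex it had 3 counts in rat 91 and 0 in rats 82, 84, 86 and 94. In ipsilateral PBBI cortex it had 18 counts in rat 81, 4 in rat 83, 2 in rat 85, 3 in rat 88, 88 in rat 90 and 14 in rat 96. The groups overlapped, and rat 90 held 67.1% of the CPM summed over the injured cortices. On the log2 CPM scale the means differed by 2.25 (two-sided exact permutation test over rats, p = 0.0195; 0.0694 after Benjamini-Hochberg adjustment over 20 tests of the 4 genes in 5 comparisons), and the difference did not pass after adjustment. The summed counts, 129 against 3, give a ratio per total count of 33.0, with a 95% interval of 11.0 to 162. That interval covers at most the error of independent counts, and not the spread between rats. Without rat 90 the log2 CPM difference was 1.70 (exact permutation p = 0.0238).

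Contralaterally, Cxcr1 gave 1 to 12 counts in the 6 PBBI samples (median 5.5) and 0 to 3 in the sham samples (2 in rat 82, 3 in rat 91 and 0 in the other 3). Of the 6 PBBI samples, 5 were above all sham samples, and the exception was rat 81 with 1 count. The difference was 1.42 on the log2 CPM scale (two-sided exact permutation test, p = 0.0216; 0.0694 after adjustment), and the ratio of summed counts, 38 against 5, was 6.09 (interval 2.39 to 19.8). The summed neutrophil markers overlapped in the same samples, at 14.0 to 62.0 CPM in PBBI and 12.5 to 56.5 in sham cortex.

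Within PBBI rats Cxcr1 was higher ipsilaterally in 3 of 6: 18 against 1 count in rat 81, 88 against 12 in rat 90 and 14 against 4 in rat 96. In rats 83, 85 and 88 it was lower ipsilaterally, at 4 against 6, 2 against 10 and 3 against 5 counts. The mean difference of 0.61 on the log2 CPM scale did not pass an exact sign-flip permutation test (p = 0.4375), nor did the injury effect differ detectably between hemispheres (difference 0.82, exact permutation p = 0.325).

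Cxcr2 (ENSRNOG00000014269), the neighbouring receptor and the main one for these chemokines on rodent neutrophils, did not pass the filter in the ipsilateral fit either. Ipsilateral PBBI counts were 239 in rat 81, 2 in rat 83, 2 in rat 85, 94 in rat 88, 59 in rat 90 and 99 in rat 96, against 0 to 6 in sham cortex. It was thus high in 4 injured rats and at the sham level in rats 83 and 85. In edgeR without the count filter its log2 fold change was 5.00 (SE 1.23, adjusted p = 0.0437), against 4.63 for Cxcr1 (SE 1.27, adjusted p = 0.0708). Rat 85 had the highest Cxcl1 with 2 counts of each receptor.

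Elane (ENSRNOG00000033685) was the sparsest member, with 0 counts in all 5 ipsilateral sham samples. Ipsilateral PBBI samples had 31 counts in rat 81, 0 in rat 83, 8 in rat 85, 11 in rat 88, 1 in rat 90 and 3 in rat 96. The groups overlapped through rat 83 alone. The 54 summed counts were at least 13.8-fold higher per total count than the floor of 3 counts over the sham group, and rat 81 gave 55.2% of the summed CPM. The log2 CPM means differed by 1.78 (two-sided exact permutation test, p = 0.0281; 0.0694 after adjustment), which did not pass after adjustment, and edgeR without the filter gave an adjusted p of 0.105. Without rat 81 the difference was 1.36 (exact permutation p = 0.0476).

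Contralaterally Elane had 2 counts in each of PBBI rats 88 and 90 and in sham rat 86, and 0 in the other 8 samples, so a difference was not detectable at this depth. Within PBBI rats it was higher ipsilaterally in 4 of 6 (exact sign-flip permutation test, p = 0.125). Among its partners, Serpinb1a, an intracellular inhibitor of elastase, rose ipsilaterally by 1.53 on the log2 scale (SE 0.344; edgeR, adjusted p = 0.0261), and Ctsc, the protease that activates granule serine proteases, rose by 2.64 (SE 0.553; adjusted p = 0.0182). Both are also expressed by other myeloid cells.

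**Figure D2:**
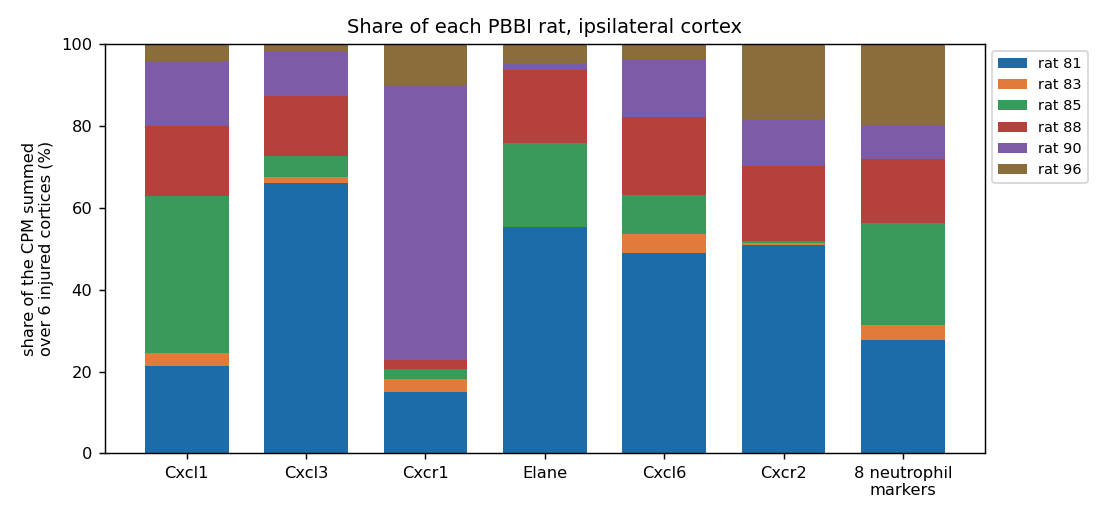
Share of each PBBI rat in the CPM summed over the 6 ipsilateral PBBI samples (y axis, percent) for the 4 genes, Cxcl6, Cxcr2 and the sum of 8 neutrophil markers. Rat 85 held 38.5% of Cxcl1 but 5.23% of Cxcl3, rat 81 held 66.0% of Cxcl3 and 55.2% of Elane, and rat 90 held 67.1% of Cxcr1. CPM are TMM-normalized, and the low factor of rat 85 (0.706, against 1.07 to 1.21 in the others) raises its shares.

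The order of the injured rats differed by gene. From high to low it was 85, 81, 88, 90, 96, 83 for Cxcl1, 81, 88, 90, 85, 96, 83 for Cxcl3, 90, 81, 96, 83, 85, 88 for Cxcr1 and 81, 85, 88, 96, 90, 83 for Elane. Rat 83 was lowest for Cxcl1, Cxcl3 and Elane and also had the lowest neutrophil marker sum, 34.7 CPM, while rats 81 and 85 had the highest sums, 264 and 237 CPM. The sum of rat 85 is raised by the low TMM factor of its library (0.706). Rat 90, the highest for Cxcr1, had a sum of 77.3 CPM, and the part of the markers in these levels was not tested.

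In the contralateral cortex neither chemokine passed a test. Cxcl1 was 0.234 ± 0.162 CPM in PBBI (n = 6, 4 to 30 counts) and 0.356 ± 0.450 in sham (n = 5, 6 to 50 counts), a log2 fold change of -0.57 (SE 0.703; edgeR, adjusted p = 1.0). The sign turned to 0.59 without sham rat 94. Cxcl3 had 2 to 13 counts in PBBI and 32, 4, 0, 1 and 2 counts in sham rats 82, 84, 86, 91 and 94 (two-sided exact permutation test, p = 0.667), the value of 32 belonging to the sham library with the unexplained title code. Across the 15907 genes tested edgeR called 0.0% higher in PBBI (0 genes, with 366 at an unadjusted p under 0.05), DESeq2 called 3 and weighted voom 1, and 0.0943% of genes had all PBBI samples above all sham samples.

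Within PBBI rats, both chemokines were higher in the injured hemisphere of 6 of 6 rats. Cxcl1 was 9.89-fold higher in rat 83, 35.0-fold in rat 81, 39.7-fold in rat 88, 48.4-fold in rat 96, 124-fold in rat 90 and 225-fold in rat 85. Cxcl3 was between 15.0-fold (rat 83) and 180-fold (rat 81) higher. In sham rats the same ratio ran from 0.55 to 4.07 for Cxcl1 and, in the 4 rats with contralateral counts, from 0.435 to 2.86 for Cxcl3, so PBBI and sham rats did not overlap. Ipsilateral against contralateral, the log2 fold change was 5.85 for Cxcl1 (SE 0.729; edgeR, adjusted p = 0.00704) and 6.56 for Cxcl3 (SE 1.01; adjusted p = 0.0094), where 2.97% of 15973 genes were called higher ipsilaterally and 10.7% were higher in all 6 rats. The exact sign-flip permutation test gave p = 0.03125 for each, the smallest 6 rats allow, and 0.0694 after adjustment over 20 tests, which does not pass. With each rat as a block the values were 5.62 (adjusted p = 0.00652) and 5.90 (adjusted p = 0.00361), beside 6.68% of genes called higher; in the unblocked fit Cxcl1 lost the call without rat 88 (adjusted p = 0.0583) and Cxcl3 without rat 88 (0.0702) or 96 (0.0688).

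No difference between the hemispheres of sham rats was detected. No member passed the filter or was higher ipsilaterally in all 5 rats (1.82% of genes were), the 0 genes called of 15747 (0.0% higher ipsilaterally, with 47 genes at an unadjusted p under 0.05 in edgeR and 0 called by DESeq2 or voom) included no pathway gene, and the exact sign-flip tests of the 4 members gave p of 0.375 to 1.0, where 5 rats allow no p below 0.0625.

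The injury effect on both chemokines was larger on the ipsilateral side. The interaction of injury and hemisphere was 5.81 on the log2 scale for Cxcl1 (SE 1.12; edgeR, adjusted p = 0.0333) and 6.92 for Cxcl3 (SE 1.47; adjusted p = 0.0439), with the other 2 members below the filter, beside 0.307% of 16587 genes called in that direction. With each rat as a block it was 5.53 (adjusted p = 0.00441) and 5.78 (adjusted p = 0.008), beside 2.95% of genes. The within-rat differences of all 6 PBBI rats were above those of all 5 sham rats for both genes, as for 3.42% of genes, which gave the smallest p an exact permutation test over 11 rats allows (p = 0.00216; 0.0108 after adjustment over 20 tests). In the unblocked fit both calls were lost when any of rats 82, 84, 86, 88, 90, 91, 94 or 96 was left out (adjusted p from 0.0637 to 0.121 for Cxcl1 and from 0.0831 to 0.28 for Cxcl3) and held without 81, 83 or 85. Without the 3 samples with the title code, chosen after seeing the data, Cxcl3 fell to 3.88 (adjusted p = 0.232) while Cxcl1 was 6.31 (adjusted p = 0.0255).

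Other genes of neutrophil recruitment were counted from 6 lists holding 55 further genes, of which 33 could be named. Ipsilaterally, 31 of them were in the fit, 18 rose and 0 fell (31 had an unadjusted p under 0.05), with a median log2 fold change of 2.31 against -0.02 over all genes tested. Since names came from the study's own called genes, this share cannot be read against the 4.09% of all genes. For the same reason the median of 2.31 cannot be read against the -0.02 of all genes. With 1 rat left out the count of 18 was 5 (rat 91) to 14 (rat 90), except without PBBI rat 83 or 85, where it was 25 and 26.

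Among the inducers and feedback genes of NF-kB, 5 of 8 rose ipsilaterally (Il1b, Il1r2, Il1rn, Nfkb2 and Nfkbiz), with a median of 1.54. Il1b, the cytokine that induces these chemokines in many cells, rose by 3.40 (SE 0.738; edgeR, adjusted p = 0.0217), while Il1rn and Il1r2 encode an antagonist and a decoy receptor of interleukin 1. Of 7 adhesion and recruitment genes 4 rose (Icam1, Itgal, Itgam and Itgb2; median 2.30). Icam1, which leukocytes bind on endothelium, rose by 1.87 (SE 0.444; adjusted p = 0.0328), and Itgb2, the shared chain of its leukocyte ligands, by 2.30 (SE 0.45; adjusted p = 0.0142).

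Of 8 granule and protease genes in the fit, 4 rose (Ctsc, Lcn2, Mmp9 and Serpinb1a; median 2.44). Olfm4, a neutrophil granule glycoprotein named after its value was seen, was the 1 gene with a negative value, -1.25 (SE 0.366; edgeR, adjusted p = 0.0783). Lcn2, an iron-chelator binding protein that astrocytes also make, rose by 3.79 (SE 0.808; edgeR, adjusted p = 0.02), and Mmp9, a gelatinase, by 2.55 (SE 0.533; adjusted p = 0.0182). The abundant neutrophil calcium-binding genes S100a8 and S100a9 did not pass, at 3.07 (SE 1.07, adjusted p = 0.143) and 2.34 (SE 1.04, adjusted p = 0.269), nor did Csf3r, the G-CSF receptor, at 1.87 (SE 0.525, adjusted p = 0.0677). S100a8 was 1.10 to 85.5 CPM in ipsilateral PBBI samples and 1.26 to 12.2 in sham samples, with rat 90 within the sham range and rat 83 below it. Of the phagocyte oxidase genes 4 of 6 rose, among them Cybb and Rac2, and C5ar1 was the 1 receptor in the fit and rose by 2.84.

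**Figure D3:**
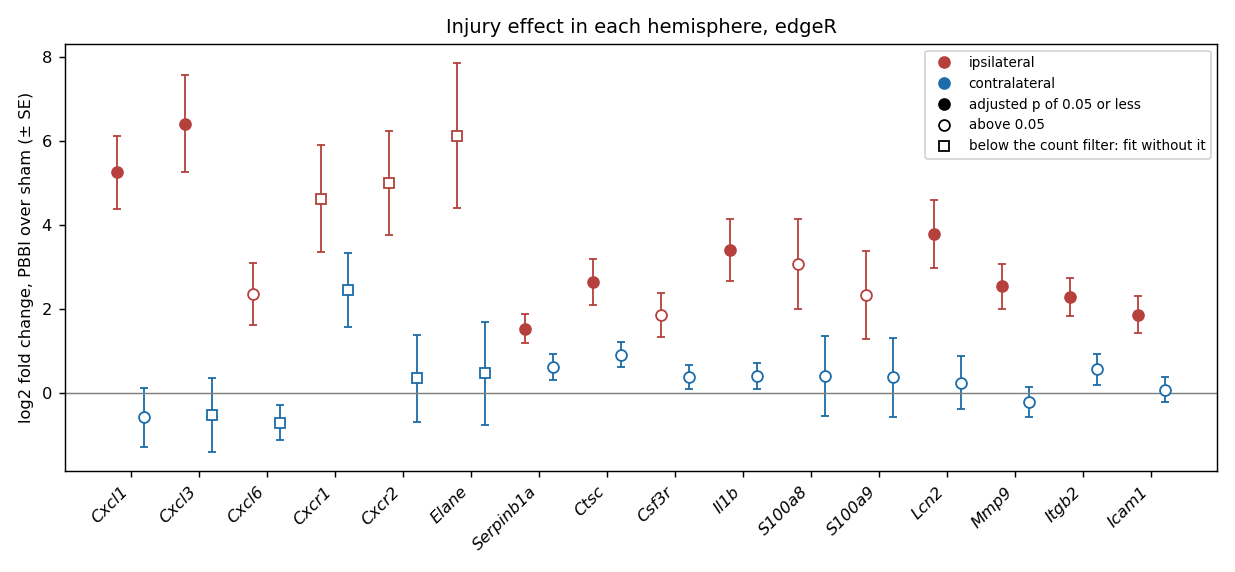
Log2 fold change of PBBI over sham with its SE (edgeR) for the 4 genes and 12 genes of the same pathway, ipsilaterally (red) and contralaterally (blue). Filled circles passed an adjusted p of 0.05 or less, open circles did not, and squares are genes below the count filter, taken from the fit without it. Cxcl1 and Cxcl3 lie at 5.26 and 6.41 ipsilaterally, and no contralateral value passed.

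Contralaterally edgeR called 0 of the 30 pathway genes in the fit, whose median was 0.27 against -0.01 over all genes; 3 had an unadjusted p under 0.05, and DESeq2 and weighted voom also called 0. For the interaction 2 of 32 passed, Il1r2 and Ncf4, and with each rat as a block 17 passed in the positive and 1 (Olfm4) in the negative direction. Within PBBI rats 30 of 31 had a positive value ipsilaterally and 19 of them passed; with the block 27 passed as higher and 1 (Olfm4) as lower. S100a8 (adjusted p = 0.0106), S100a9 (0.0135), Itgb2 (0.00959), Serpinb1a (0.0199) and Ctsc (0.026) passed edgeR in that comparison only with the block. Cxcl6, which missed the threshold against sham, passed within PBBI rats at 2.48 (SE 0.593; edgeR, adjusted p = 0.038). Over all genes, 0.307% were called in the positive direction for the interaction, and 2.95% with the block. Within PBBI rats 2.97% of all genes were called higher ipsilaterally, and 6.68% with the block. In the negative direction the block called 219 of 16587 genes for the interaction and 579 of 15973 within PBBI rats. Since the pathway genes were named from the study's own called genes, their counts cannot be read against these values of all genes. The same holds for their contralateral median of 0.27 against -0.01.

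Named markers of other cells also moved in the same samples. Since names came from the study's own called genes, their counts are not independent evidence. They cannot be read against the 4.09% of all 16104 genes called higher in ipsilateral PBBI cortex, or against the 94 genes called lower. Ipsilaterally 2 of 7 neutrophil markers in the fit rose (Lcn2 and Mmp9), as did 5 of 6 monocyte and macrophage markers, whose summed level was 250 to 1965 CPM in PBBI and 17.0 to 73.4 in sham without overlap. Neuron markers summed to 743 to 1298 CPM in ipsilateral PBBI and 1506 to 1702 in sham cortex, without overlap. All 6 had negative values (median log2 fold change -0.77), and 1 of them was called lower (Synpr). The astrocyte sum was 3459 to 8299 against 2244 to 3885, with 2 of 5 higher and 3 lower. The microglia sum was 164 to 375 against 83.9 to 181, with 2 of 3 higher (C1qb and C1qc). The other, Tmem119, had a negative value of -0.92 (SE 0.27, edgeR, adjusted p = 0.0799). Within PBBI rats it was called lower ipsilaterally, at -1.20, as were 94 of all 15973 genes tested. The T cell sum was 3.54 to 12.0 against 0.534 to 2.43, with 1 of 5 higher. Of oligodendrocyte markers 1 of 3 fell, of endothelial markers 1 of 3 rose (Vwf) while the other two had negative values that did not pass, with a sum of 55.5 to 140 CPM in PBBI and 98.5 to 159 in sham cortex, and neither of the B cell markers was in the fit. The part of these cells in the chemokine levels was not tested.

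The named genes whose log2 CPM was most like that of Cxcl1 over all 22 samples included Ccl2 (r = 0.95), the highest of 16586 genes in the fit, and Birc3 (0.941). For Cxcl3 they were Plaur (0.948), Sprr1a (0.945) and Ccl7 (0.933). For Elane they were Rrad (0.891), Pou4f3 (0.883) and Ptprh (0.859), and for Cxcr1 the likeness was weaker, with Psd4 (0.766), Il1rl2 (0.757) and Loxhd1 (0.746). These correlations describe samples that share injury groups and rats, and those of Elane and Cxcr1 rest on sparse counts. Among members, Cxcl1 and Cxcl3 had r = 0.844 and Cxcr1 and Elane r = 0.332.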

How the data were processed

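Paired-end reads came from stranded libraries after removal of ribosomal RNA. Per the labels, the authors aligned reads to Rnor_6.0 with STAR 2.4.2a and counted them with featureCounts 1.4.3-p1, and the deposited values are raw counts per gene, not normalized; the strand and multimapping settings are not given in the sources used here. Gene length is the authors' value in the same table. In the deposited counts, even numbers made up 60.8% to 69.6% of the values between 1 and 19 in each sample, so counts may not be independent fragments. Intervals and floors (3 counts summed over a group) treat counts as independent. They may therefore understate counting error, and they do not cover the spread between rats. No molecular identifiers are described.

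Groups were taken from the sample labels, with rats as replicates, and the week of surgery was not used here. The quasi-likelihood test of edgeR 4.0.16 with TMM normalization, filterByExpr and Benjamini-Hochberg adjustment was fitted to the 11 ipsilateral samples, the 11 contralateral samples, all 22 for the interaction, and each treatment's hemispheres. The SE is the log2 fold change divided by the square root of F. CPM are TMM-normalized, and log2 CPM used a prior count of 2. The members were also tested singly on log2 CPM with two-sided exact permutation tests over rats, and sign flips within a treatment. The samples of a rat pair: the correlation of their deviations from group means over genes was 0.246 to 0.758 in the 11 rats, so fits with the rat as a block are given. Alternatives were DESeq2 1.42.0 with and without a prior, RLE factors, no filter, limma 3.58.1 voom with quality weights, all 22 samples in 1 fit, a prior count of 0.5, total counts without TMM, and each rat left out. The unblocked edgeR, DESeq2 and voom fits were tested on simulated counts with changes planted in well expressed genes. The permutation tests, the blocked fits and changes in sparse genes such as Cxcr1 and Elane were not simulated.

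Genes named are the 4 members, 13 pathway genes set as a list with the 6 pathway lists and the cell type markers, the called genes of those lists, and for each member the 3 most correlated named genes; some of these are not reported here. The members and lists were chosen with earlier results of these data known. Promoter windows of the RefSeq table are shown for Cxcl1, Cxcr1 and Cxcl6. No window was available for the members Cxcl3 and Elane. The windows of Cxcl2 (2 matches) and Cxcr2 (0 matches) were searched but are not printed. Fold changes and p-values of the study's own tables were not used.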

Additional observations from a re-analysis of the deposited data

Results flagged for a closer look

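The injury effect differed between hemispheres for Cxcl1, with an interaction of 5.81 on the log2 scale, and for Cxcl3, with an interaction of 6.92, both past the threshold of edgeR's quasi-likelihood test after Benjamini-Hochberg adjustment (adjusted p = 0.0333 and 0.0439). Of 16587 genes, 0.307% were called in that direction. All 6 PBBI rats had a larger ipsilateral excess than all 5 sham rats for both genes, as for 3.42% of genes. With 1 rat left out, each call held in only 3 of 11 unblocked fits. The Cxcl3 call was also lost without the samples with the title code. No sample of a member lay far enough from its group to be listed as an outlier on the log2 CPM scale, where groups with no sample above 3 counts were not examined.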

How the results depend on the processing

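The chemokine calls in ipsilateral PBBI against sham held in every setting tried, with the log2 fold change of Cxcl1 between 4.81 and 6.14 and that of Cxcl3 between 5.13 and 6.98 when 1 rat was left out. Both kept their sign and call under DESeq2, RLE factors, no filter, weighted voom and the joint fit of 22 samples; DESeq2 with a prior shrank them to 3.48 and 3.38.

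Counts of genes moved more. Ipsilaterally 753 genes were called, 1639 by DESeq2, 1628 by DESeq2 with a prior, 5014 by weighted voom, 1655 in the joint fit, and 316 (without rat 91) to 2186 (without rat 85) when 1 rat was left out. The 18 pathway genes became 29 by DESeq2 with or without a prior, 28 by voom and 30 in the joint fit, and 5 to 26 with a rat left out. Contralaterally the count of 0 became 3 by DESeq2, 1 by voom and 0 to 1 with a rat left out. For the interaction the 54 genes became 353 by DESeq2, 1663 by voom, 708 with the replicate block and 0 to 255 with a rat left out, and the 2 pathway genes 12, 22, 18 and 0 to 7. The 2 members became 1 without the samples with the title code and 0 to 2 with a rat left out. Ipsilateral against contralateral in PBBI, the 568 genes became 1535 by DESeq2, 3695 by voom, 1646 with the block and 1 (without rat 88) to 1149 (without rat 85), the 19 pathway genes 29 by voom and 0 to 25, and the 2 members 0 to 2. With the block, 28 pathway genes passed in that comparison, and no call of a member changed. The causes were not tested.

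Directions turned only where nothing was called. Contralateral Cxcl1 was 0.30 by weighted voom and between -0.81 and 0.59 (without rat 94) with a rat left out, and its log2 CPM difference between -0.44 and 0.35 (without rat 94), turning also without rat 96. Contralateral Cxcl3, 0.33 on the log2 CPM scale, was between -0.042 (without rat 86) and 1.01 and was -0.52 in edgeR without the filter. Contralateral Elane was between -0.027 (without rat 90) and 0.32, turning also without rat 88. In sham rats ipsilateral against contralateral, Cxcl1 was between -0.36 (without rat 84) and 0.26 and Cxcl3 -0.37 in edgeR without the filter.

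For members below the filter, the unadjusted exact permutation p of ipsilateral Cxcr1 was at most 0.0333 with any rat left out and that of Elane at most 0.0571, and a prior count of 0.5 widened their differences from 2.25 to 3.63 and from 1.78 to 3.09. Depth limits both, since sham samples held 0 to 3 counts of Cxcr1 and 0 to 2 of Elane.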
